A study of Homo sapiens with 27 samples.

Results

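Temozolomide (TMZ) was applied to purified LN-229 genomic DNA and to living LN-229 cells, and the guanines it marked were compared between both settings by region and by neighbouring bases. LN-229 is an established human glioblastoma line. The marked guanines were read by O6-MeG-seq, in which sheared DNA carrying O6-methylguanine is enriched with an antibody and the position of the lesion is read from where a DNA polymerase stops. The 3 groups of the main comparison hold 3 libraries each. The naked DNA group was treated with 1 mM TMZ outside cells: replicate 1 came from non-transfected WT cells, replicate 2 from WT cells and replicate 3 from MGMT-transfected cells. The cell group was the WT line, here the transfection control, given 1 mM TMZ 3 times at intervals of 4 h, with DNA taken 24 h after the start. The third group was the same WT line given 1% DMSO, the solvent, on that schedule. Further libraries serve as side checks: 3 of WT cells given 1 mM TMZ once, 3 of MGMT-transfected cells given 1 mM TMZ 3 times, and the solvent controls of both lines given 1% DMSO once or 3 times, which make 12 libraries with those above. A solvent control on naked DNA was not analysed here, and the duration of the naked DNA treatment is not given in the sources used here. Libraries were chosen by these labels, and sites by chromosome (1 to 22 and mitochondrial), a score of 30 or more and a marked base of G. This left 19740284 G sites in naked DNA and 13986715 in cells, from 6 of 27 libraries of a series with 149160252 deposited sites.

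TMZ breaks down in water to a methylating species that attacks DNA bases, among them the O6 position of guanine, the lesion on which the drug's toxicity to glioma cells chiefly depends. MGMT removes this methyl group directly, mismatch repair recognises the mispairs the lesion makes during replication, and base excision repair deals with the methylated purines at other ring positions. Purified DNA carries neither nucleosomes nor active repair nor transcription, whereas DNA in cells has nucleosomes, transcription and some repair. A comparison of both settings thus asks where chromatin and cell repair alter the chemistry's own pattern. The MGMT activity of the WT line is not given in the sources used here, so the part of MGMT repair was not tested. Cells were also dosed repeatedly, whereas no such schedule is given for naked DNA, so schedule and setting were not separated.

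Replicates of naked DNA held 8826252, 5126312 and 5787720 G sites, and those of cells 3524253, 5480962 and 4981500. A list holds each position and strand once, so these are numbers of distinct sites, not of reads. CDKN2A and CDKN2B, which are deleted in LN-229, held 0 G sites in all 6 libraries. Naked DNA replicate 3 stood apart from the other 5 libraries by whole chromosomes. Relative to the mean of naked replicates 1 and 2, its median window density was higher by 0.37 (log2) on chromosome 15, by 0.28 on chromosome 1 and by 0.26 on chromosome 2, and it was -0.32 on chromosome 20. In solvent-treated cells the MGMT line, which supplied the DNA of this library, differed from the WT line by 0.34, 0.27, 0.26 and -0.32 on the same chromosomes. The 3 cell libraries lay between -0.09 and 0.05 on every chromosome. Many results are also given without this library, or with its counts divided by the density ratio of all MGMT over all WT solvent controls in bins of 2 Mb, called dosage correction here.

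**Figure D1:**
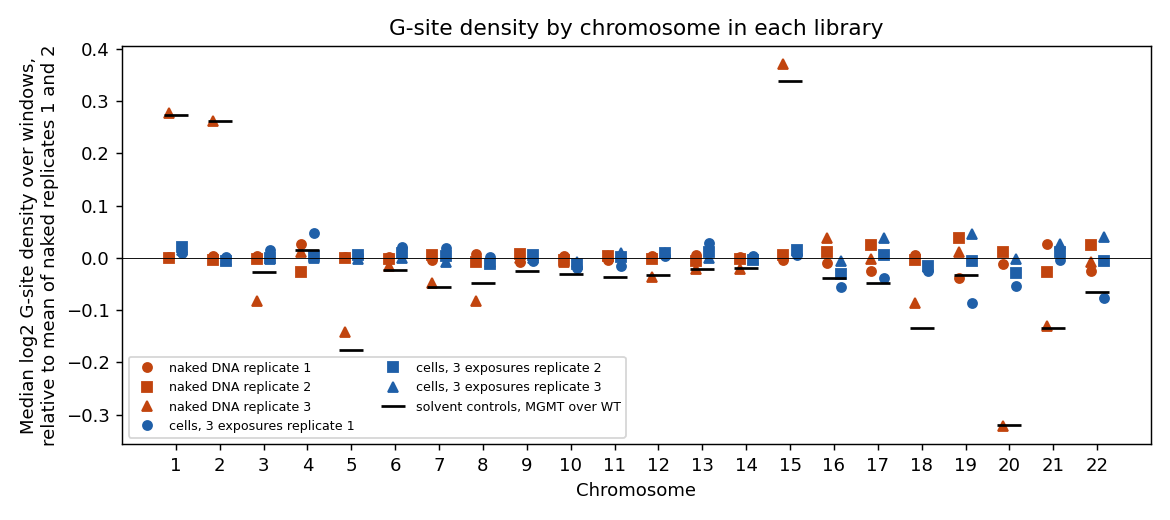
Median log2 density of G sites over the 100 kb windows of each autosome, relative to the mean of naked DNA replicates 1 and 2. Points are libraries (red, naked DNA; blue, cells given TMZ 3 times) and black dashes the ratio of MGMT over WT solvent controls. Naked replicate 3 follows the dashes, for instance 0.37 on chromosome 15 and -0.32 on chromosome 20, while the cell libraries stay between -0.09 and 0.05.

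Libraries also fell into sets that shared background sites. The rate of shared non-G sites per possible pair of sites, which allows for the lengths of both lists, was 2.38 times that of the median pair of libraries for naked replicates 2 and 3, and 1.69 times for cell replicates 2 and 3. No pair of a naked and a cell library of the main comparison exceeded 1.20 times the median, so the set and the group cannot be told apart. Naked replicate 1 and replicate 1 of WT cells given TMZ once had 2.34 times the median rate. That pair, 1 library against 1, is the closest comparison within a set and is given where it bears on a result.

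A larger share of marked bases was G in naked DNA than in cells. G made up 70.9%, 68.3% and 67.8% of autosomal sites in the naked libraries, against 59.7%, 64.1% and 62.6% in cells and 23.7%, 19.6% and 19.3% in solvent controls. The lowest naked library lay above the highest cell library. The mean difference was 6.84 points (69.0% ± 1.66 against 62.2% ± 2.23, SD, n = 3 each; exact two-sided permutation test, p = 0.1, adjusted 0.45 over 9 values). With 3 libraries against 3, p cannot go below 0.1. Of those 9 values per library, 2 separated the groups with no overlap (22.2%), and this was one of them. The other is a value at gene starts that was built after its shape had been seen, so of the 8 values set earlier this one alone separated the groups. In the pair within a set the G share was 70.9% in naked replicate 1 and 44.8% in WT cells given TMZ once, a difference of 26.1 points between libraries that differ in the number of exposures too.

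Sites at other bases were compared with those at G. In promoter sequences, where the base composition is known, sites at C were 5.41%, 9.88% and 9.93% as dense as sites at G in naked DNA, and 17.9%, 14.7% and 17.3% as dense in cells. Sites at T gave 7.73%, 10.1% and 10.7% in naked DNA against 18.2%, 15.1% and 15.8% in cells. For both bases every naked library was below every cell library (exact two-sided permutation test, p = 0.1 for each). Sites at an A that precedes a G were denser than at the other non-G bases: 34.1%, 33.6% and 34.2% of the density at G in naked DNA, and 31.1%, 31.1% and 33.2% in cells. There every naked library was above every cell library, the reverse of C and T (exact two-sided permutation test, p = 0.1). The density at A elsewhere was 11.8% ± 0.69 in naked DNA and 11.7% ± 1.40 in cells (SD, n = 3 each; exact two-sided permutation test, p = 0.9). An A before a G was therefore marked 2.88 ± 0.15 times as often as another A in naked DNA and 2.73 ± 0.34 times in cells, against 1.38 ± 0.19 times in solvent controls (SD, n = 3 each).

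The mitochondrial chromosome, a small circular genome present in many copies and packed without histones, was marked in both settings at most of the G positions seen in any library. Naked libraries held 4030, 4333 and 4347 mitochondrial G sites, cell libraries 3927, 3886 and 3972, and solvent controls 1862, 2169 and 1780. Each naked library was thus above each cell library, although naked replicate 1, with by far the most autosomal sites, had the fewest mitochondrial sites of its group. Over all 27 libraries 5354 mitochondrial G positions were seen at least once. Of the 1519 on the forward reference strand, naked libraries held 78.8%, 78.7% and 79.9% and cell libraries 72.1%, 71.8% and 70.6%. Of the 3835 on the reverse strand, naked libraries held 73.9%, 81.8% and 81.7% and cell libraries 73.8%, 72.9% and 75.6%, so the groups were apart on the forward strand and overlapped on the reverse one. In all 3 naked libraries 3001 positions recurred, in all 3 cell libraries 2639, and 1854 in all 6, which is 61.8% of the first set and 70.3% of the second. As a share of autosomal G sites, mitochondrial G sites were 0.0457%, 0.0846% and 0.0752% in naked DNA and 0.112%, 0.0710% and 0.0798% in cells, and these values overlapped (log2 difference -0.37; exact two-sided permutation test, p = 0.5, adjusted 0.771). The difference was -0.11 without naked replicate 1, -0.18 without cell replicate 1 and -0.55 without naked replicate 2. Relative to mitochondrial sites at other bases it was -0.30, with an unadjusted p of 0.1 in the exact test, and in the pair within a set it was -2.56. A list of distinct positions saturates on so small a chromosome. The number of mitochondrial genomes and the marking of each cannot be told apart.

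Over 100 kb windows of the autosomes, the pattern of marked guanines in naked DNA was nearly that in cells. Of 26614 windows tested, 0 (0%) differed at an adjusted p of 0.05 or less (limma voom, Benjamini-Hochberg), 1851 had an unadjusted p under 0.05, and limma with a trend and median-of-ratios sizes also called 0. The log2 difference, naked minus cells, was within 0.25 either way in 94.7% of windows. In simulated data the same fit recovered 100% of 200 windows changed 2-fold and 32% of those changed by 25%. These data had a common spread for all windows and no chromosome shifts like those of naked replicate 3. The shares can therefore overstate what the fit recovers in the real libraries.

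The spread between individual libraries showed the same. Beyond counting error, the log2 ratio of naked replicates 1 and 2 had an SD of 0.051 over windows, and pairs of cell libraries 0.030 to 0.075. The 6 pairs of a cell library with naked replicate 1 or 2 had an SD of 0.059 to 0.097, from within the range of the replicate pairs to above it. Every pair with naked replicate 3 had an SD of 0.194 to 0.218, whichever group the other library came from. Unevenness of the density over windows was 0.53, 0.56 and 0.57 (log2 SD beyond counting error) in naked DNA and 0.52, 0.54 and 0.57 in cells (exact two-sided permutation test, p = 0.6, adjusted 0.771), against 0.45, 0.43 and 0.45 in solvent controls.

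**Figure D2:**
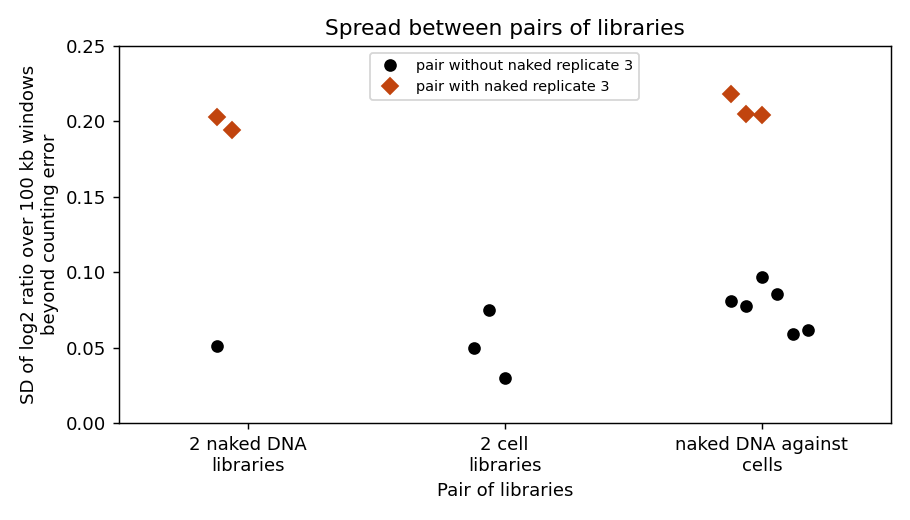
SD over 100 kb windows of the log2 ratio of G-site density between 2 libraries, after subtraction of counting error. Each point is a pair of libraries; red diamonds are pairs with naked DNA replicate 3. Pairs of naked DNA with cells that leave out that library lie between 0.059 and 0.097, close to pairs of cell libraries (0.030 to 0.075).

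Window GC content was taken as the share of G and C among bases marked in solvent controls, not from the genome sequence. By this measure the median log2 difference ranged from -0.02 to 0.03. In the 5323 windows lowest in GC (28.5% to 35.7%) it was -0.0065, with 47.7% of windows higher in naked DNA. In the next 5324 (to 37.9%) it was -0.02, with 44.5% higher, and in the 5323 highest (44.0% to 69.1%) it was 0.03, with 62.2% higher. Windows without protein-coding gene sequence had a median of 0.02, and windows wholly within genes -0.0050. Protein-coding genes held 48.4%, 49.0% and 49.1% of autosomal G sites in naked DNA and 48.7%, 49.1% and 49.5% in cells, with 46.7%, 46.2% and 46.3% in solvent controls. The ratio of sites in genes to sites between genes differed by -0.02 (log2; exact two-sided permutation test, p = 0.5, adjusted 0.771). This difference was -0.045 with the solvent control subtracted from the cell libraries and -0.02 relative to sites at other bases, each with p = 0.1 in the exact test, unadjusted.

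With the dosage of naked replicate 3 corrected, 23 windows (0.0864%) passed, 20 higher in naked DNA and 3 higher in cells (limma voom, adjusted p of 0.05 or less), and leaving out 1 library at a time reduced this to between 0 and 7. Without naked replicate 3, 10 windows (0.0376%) passed, 9 of them higher in naked DNA, and 6 of the 10 were among the 23. These windows are described because the uncorrected fit called 0, and they were picked after their values were seen. The window with the smallest p lay at chr12:128900001-129000000 over GLT1D1, a glycosyltransferase-like gene. On the library sizes of the fit, it held 40.9, 40.3 and 37.0 sites per 1000000 in naked DNA and 24.8, 28.8 and 26.99 in cells (corrected log2 difference 0.55; limma, adjusted p = 0.0048). The same stretch of chromosome 12 held 3 more called windows, over TMEM132C and TMEM132D, which encode membrane proteins of the nervous system. Further windows higher in naked DNA lay over CTNNA2 (neuronal alpha-catenin), DPP6 (a potassium channel subunit of neurons), KAZN, over GPR26 and over CCT8L2, and 9 of the 23 held no protein-coding gene. The 3 windows higher in cells lay over PDS5B, a cohesin regulator, over COA1 and STK17A, and over DTX2, SPDYE16 and UPK3B. The window at chr7:43600001-43700000, over COA1 and STK17A, held 44.0, 44.8 and 41.7 sites per 1000000 in naked DNA and 63.8, 55.4 and 56.6 in cells (corrected log2 difference -0.41; limma, adjusted p = 0.030).

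Gene bodies gave a like picture. Of 16988 protein-coding genes tested, 0 (0%) passed with all 6 libraries (limma voom; 902 at an unadjusted p under 0.05; 0 with limma trend). In simulated data with the same limits as for windows, the fit recovered 92.3% of 2-fold changes and 23.6% of changes by 25%. Without naked replicate 3, 27 of 16803 genes (0.161%) passed, and all 27 were higher in naked DNA. Most were long: 26 of 27 were at least 100 kb, as were 3206 of all 16803 genes tested there (19.1%), and 18 of 27 at least 500 kb, as were 303 of all (1.80%). The median of the 27 was 896 kb. Long genes hold more sites, so smaller differences can pass in them. Their log2 differences were 0.17 to 1.09 with a median of 0.25. In the fit with all 6 libraries 26 of the 27 were higher in naked DNA, and all 27 were with the dosage correction, although only 2 then passed (0.0118%). The 27 were picked by their values in these same libraries, so their direction in those fits is largely given by the choice. With that correction and without naked replicate 2, 8 genes passed, 5 higher in naked DNA and 3 higher in cells.

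TMEM132D, at chr12:129071726-129904025, held 0.341, 0.337 and 0.334 sites per kb per 1000000 autosomal G sites in naked DNA and 0.268, 0.281 and 0.267 in cells. All naked libraries were thus above all cell libraries, with a log2 difference of 0.33 (SE 0.06; limma, adjusted p = 0.375 with all libraries, 0.0051 with the dosage correction). GLT1D1, at chr12:128853478-128984968, held 0.399, 0.407 and 0.360 against 0.248, 0.300 and 0.292 (log2 difference 0.48, SE 0.10; limma, adjusted p = 0.375, and 0.014 with the correction). These were the 2 genes that passed with the correction, and they lie next to each other. CTNNA2 held 0.292, 0.268 and 0.342 in naked DNA and 0.235, 0.237 and 0.245 in cells. Its log2 difference of 0.34 was 0.26 without naked replicate 3, in whose line the region had the higher density in solvent controls. DPP6 held 0.377, 0.360 and 0.412 against 0.328, 0.311 and 0.311. GALNT17, a glycosyltransferase of brain, held 0.463, 0.455 and 0.423 against 0.382, 0.392 and 0.368. For DPP6 and GALNT17 too the groups did not overlap. The genes of this paragraph were picked by their values in these libraries, so such separation is in part given by the choice. The share of all genes without overlap is not given here. Without naked replicate 3 the same direction passed for RBFOX1 (a neuronal splicing factor, 0.20), ASIC2 (an acid-sensing ion channel, 0.21), PTPRT (a receptor tyrosine phosphatase, 0.20, and 0.10 with all libraries) and KLK13 (a secreted protease and the only short gene of the 27, 1.09). ATP10A, on chromosome 15, passed as well (0.38, and 0.65 with all libraries), and its 0.289, 0.281 and 0.533 in naked DNA set replicate 3 apart, in whose line the region also had the higher density in solvent controls.

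Most of these differences were smaller relative to sites at other bases in the same libraries. Relative to all non-G sites, the log2 difference was 0.14 in TMEM132D, 0.21 in GLT1D1, 0.03 in CTNNA2, 0.14 in DPP6, 0.10 in GALNT17, 0.12 in ASIC2, 0.04 in RBFOX1, 0.20 in ATP10A and 0.40 in KLK13 (0.88 with all libraries and no such scaling). Relative to sites at C and T it was 0.18, 0.24, 0.02, 0.18, 0.11, 0.15, 0.04, 0.26 and 0.34 in the same order. PTPRT barely moved, with 0.10 unscaled, 0.09 relative to non-G sites and 0.10 relative to C and T sites. The median of the 27 genes, 0.21 with all libraries, was 0.09 relative to non-G sites, with 26 of 27 above 0, and 0.10 relative to C and T sites, with 25 of 27 above 0. These signs rest on the G counts by which the genes were picked, so they are in part given by the choice. With either scaling 0 of the 27 passed (limma with a trend), and 9 and 8 had an unadjusted p under 0.05.

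Among genes of 500 kb or more, 18 of 303 passed without naked replicate 3 (5.94%), and 221 of 303 (72.9%) had the higher density in naked DNA, with a median log2 difference of 0.04. Genes of 50 to 100 kb had the higher density in naked DNA in 47.2% of cases and a median of -0.0075. With all 6 libraries the share in the longest class was 58.7% and the median 0.02, and relative to non-G sites they were 64.4% and 0.02.

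**Figure D3:**
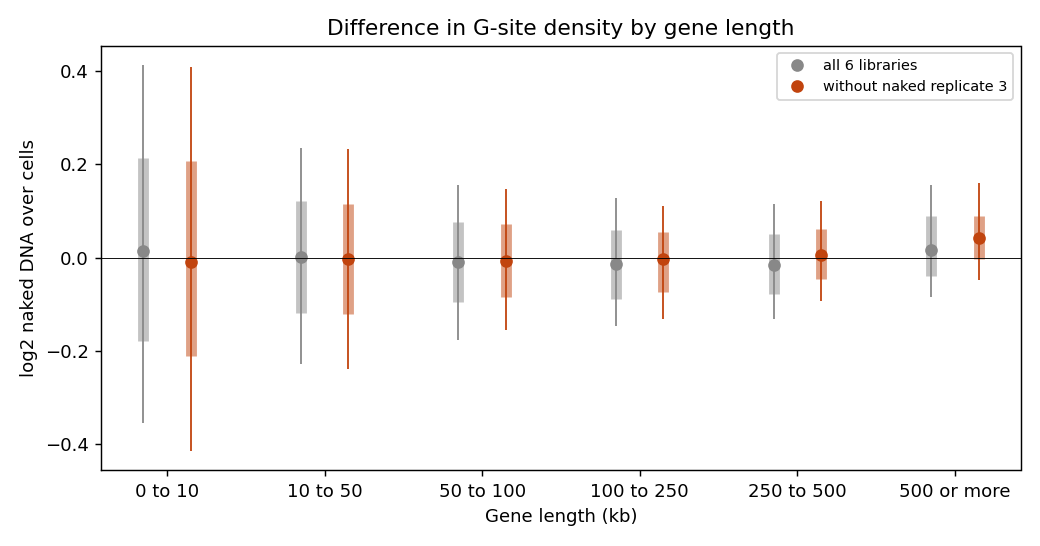
Log2 difference in G-site density, naked DNA over cells, for protein-coding genes by length. Dots are medians, thick bars the middle 50% and thin lines the 10th to 90th percentile, with all 6 libraries (grey) and without naked DNA replicate 3 (red). The medians stay near 0 and the longest class reaches 0.04 without that replicate.

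Lists of genes with a shared role or expression gave small median differences, and 0 members of any list passed with all 6 libraries (limma voom; 0% of all genes). Over all genes the median log2 difference was -0.0038 with all libraries and -0.0029 without naked replicate 3, and 49.1% and 49.3% had the higher density in naked DNA. With all libraries this share was 52.1% in genes under 10 kb, 44.6% in those of 100 to 250 kb, 42.5% in those of 250 to 500 kb and 58.7% in longer ones. Of 25 neuronal adhesion and synapse genes, expressed mainly in neurons, 18 had the higher density in naked DNA (median 0.03), 23 without naked replicate 3 (median 0.08), and 4 passed there, against 0.161% of all genes and 5.94% of genes of 500 kb or more. Relative to non-G sites 16 of 25 were higher in naked DNA (median 0.03). The summed list took 8.55, 8.28 and 8.17 of every 1000 autosomal G sites in naked DNA and 8.19, 8.07 and 7.91 in cells, with naked replicate 3 just below the highest cell library. Besides CTNNA2, the list's members CNTNAP2 and DPP10, both of neuronal membranes, had log2 differences of 0.12 and 0.18, and of 0.03 and 0.10 relative to non-G sites. Of 30 long genes transcribed in most cell types, 10 had the higher density in naked DNA (median -0.06), and 9 without naked replicate 3 (median -0.06, 0 passed). Relative to non-G sites it was 11 of 30 (median -0.02). That list took 3.68, 3.69 and 3.84 of every 1000 sites in naked DNA and 3.90, 3.87 and 3.87 in cells, with no overlap between groups. Such summed shares did not overlap in 6 of 15 lists (40%), higher in naked DNA in 3 (olfactory receptor, keratin-associated, and direct-reversal and base excision repair genes) and in cells in 3 (these long genes, ribosomal protein genes and glioblastoma drivers). In the repair list only 7 of 17 genes were higher in naked DNA. There MGMT alone held 1164, 579 and 717 of 2704, 1539 and 1687 summed sites in naked DNA. In cells it held 382, 603 and 511 of 972, 1523 and 1441. NIPBL, the cohesin loader and a member of the list of long transcribed genes, held 0.311, 0.319 and 0.338 sites per kb per 1000000 autosomal G sites in naked DNA and 0.421, 0.358 and 0.401 in cells (log2 difference -0.26, SE 0.09, limma adjusted p = 0.892). CHD2, a chromatin remodeller, had -0.16, and HERC2, a ubiquitin ligase in a region denser in solvent controls of the MGMT line, had 0.34, or 0.09 without naked replicate 3. No expression data were used, and the part of transcription in these differences was not tested.

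Genes at common fragile sites, very long genes prone to breakage under replication stress, had the higher density in naked DNA in 11 of 15 cases (median 0.06), and in 14 of 15 without naked replicate 3, where 2 passed, against 0.161% of all genes and 5.94% of genes of 500 kb or more. RBFOX1 had 0.17, DAB1, an adaptor of neuronal migration, 0.23 (0.15 without naked replicate 3), FHIT, a dinucleotide hydrolase and tumour suppressor, 0.14 and PTPRG, a receptor phosphatase, 0.15 with all libraries. Relative to non-G sites these were 0.04, 0.06, 0.01 and 0.07, and 14 of 15 members were above 0 (median 0.05). Cytosolic ribosomal protein genes, short and highly transcribed in every cell, had the higher density in naked DNA in 23 of 69 cases (median -0.13, and -0.17 without naked replicate 3). RPS14 held 0.415, 0.467 and 0.730 sites per kb per 1000000 autosomal G sites in naked DNA and 0.760, 0.720 and 0.792 in cells, which rests on 17 to 30 sites per library, and RPS3 had a log2 difference of -0.34. RPL22L1 and RPL26L1, paralogs of ribosomal protein genes, had -0.97 and -0.42. Housekeeping genes had 8 of 22 higher in naked DNA (median -0.04), and 5 of 22 without naked replicate 3 (median -0.09), with TUBB, a tubulin, at -0.66. Of those with the smallest p, the glycolytic genes PKM and ENO1 went the other way, at 0.33 and 0.51, or 0.23 and 0.34 without naked replicate 3. Relative to non-G sites this direction was lost, at -0.27 and -0.00021. Olfactory receptor genes, silent outside the nose, had 86 of 141 higher in naked DNA (median 0.09), and 76 of 132 without naked replicate 3 (median 0.08), with OR9Q1 at 0.28, OR6N1 at 0.30, OR2Z1 at 0.66 and OR9A4 at 0.94 (-0.15 relative to non-G sites). OR9A4 held 22, 15 and 11 sites in naked DNA and 3, 12 and 4 in cells, so it would not have entered the test through cells alone. With all 6 libraries none of the genes in these lists passed the test.

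Genes that repair alkylated DNA lay on both sides of equal density. Mismatch repair genes had 5 of 10 higher in naked DNA (median -0.03), and 6 of 10 without naked replicate 3 (median 0.0088). EXO1, the exonuclease of the pathway, had a log2 difference of 0.32 (0.22 without naked replicate 3), and PMS2, a subunit of the MutL endonuclease, had 0.35. PCNA, the sliding clamp, had -0.26 (-0.21 without naked replicate 3, and -0.12 with the dosage correction). Of 17 direct-reversal and base excision repair genes 7 were higher in naked DNA (median -0.04), and 8 without naked replicate 3 (median -0.01). MUTYH, an adenine glycosylase, was at 0.80 but at -0.057 relative to C and T sites, XRCC1, a scaffold of single-strand break repair, was at 0.34, and NTHL1, a glycosylase for oxidised pyrimidines, was at -0.48 (-0.28 without naked replicate 3). MGMT itself, at chr10:129467241-129770983, held 0.434, 0.372 and 0.408 sites per kb per 1000000 autosomal G sites in naked DNA and 0.357, 0.362 and 0.338 in cells. Its groups did not overlap (log2 difference 0.22, SE 0.08). On the library sizes of the fit, those of EXO1, MUTYH, XRCC1 and NTHL1 did not overlap either, with NTHL1 higher in cells. The share of all genes without overlap is not given here, so this does not set MGMT apart. MGMT did not pass over all genes (limma, adjusted p = 0.892, and 0.193 without naked replicate 3). Relative to non-G sites its difference was 0.07. Glioblastoma driver genes had 4 of 17 higher in naked DNA (median -0.09), and 3 of 17 without naked replicate 3 (median -0.07). NF1, a negative regulator of RAS, held 0.322, 0.344 and 0.201 in naked DNA against 0.373, 0.405 and 0.356 in cells. Its log2 difference of -0.40 was -0.17 without naked replicate 3, in which its region is at lower dosage. CDK6, a cell cycle kinase, had -0.27 (-0.12 without naked replicate 3, and 0.0041 relative to C and T sites), PIK3CA, a lipid kinase, had -0.28 (-0.16), and PDGFRA, a growth factor receptor, had 0.19 (0.28).

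Zinc finger genes of chromosome 19 had 112 of 239 higher in naked DNA (median -0.01), and 134 of 239 without naked replicate 3 (median 0.02), among them ZNF230 at -0.82, ZNF581 at -0.57 (-0.70 with the dosage correction and without naked replicate 2; limma, adjusted p = 0.042), ZNF99 at 0.58 and ZNF536 at 0.19. HOX genes, the regulators of body axis, had 17 of 37 (median -0.0034), and 20 of 36 without naked replicate 3 (median 0.04), with HOXB1 at 0.65, HOXD13 at 0.39, HOXB6 at -0.33 and HOXA13 at -0.48. HOXB1 was at -0.74 relative to C and T sites. It held 24, 12 and 21 sites in naked DNA and 6, 11 and 8 in cells, so it would not have entered the test through cells alone. HOXA13 was at -0.30 without naked replicate 3, and at 0.50 relative to non-G sites. Protocadherin cluster genes had 7 of 50 (median -0.05), 22 of 50 with the dosage correction and 28 of 49 without naked replicate 3 (median 0.03), so that the side they took turned with this library. Their members share exons, so they are not separate measurements. PCDHA9, PCDHA10, PCDHA11 and PCDHA12 had -0.20, -0.20, -0.21 and -0.21, and -0.13, -0.13, -0.15 and -0.14 without it. Mesenchymal and matrix genes typical of glioma lines had 11 of 23 (median -0.0064), and 10 of 22 without naked replicate 3 (median -0.02), with THBS1, a matrix glycoprotein, at 0.53, CCN1, a matricellular protein, at 0.61, COL6A3, a collagen chain, at 0.23 (0.09 without naked replicate 3) and VIM, an intermediate filament protein, at -0.38 (0.12 relative to non-G sites). CCN1 held 13, 10 and 11 sites in naked DNA and 4, 6 and 5 in cells, so it entered the test only through the naked libraries. Histone cluster genes had only 8 of 74 members tested (2 higher in naked DNA; 1 of 7 without naked replicate 3), with H4C15 at -0.69, H2BC12 at -0.22 and H1-8 at -0.16. Without naked replicate 3 these were -0.84, -0.35 and -0.32, and relative to non-G sites H1-8 was at 0.32. Of the 94 keratin-associated genes 0 were tested, since such short genes hold few sites.

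Gene starts were compared next. Within 1 kb of the starts of genes with a known strand lay 1.77%, 2.003% and 2.01% of autosomal G sites in naked DNA, 1.81%, 1.82% and 2.03% in cells, and 1.32%, 1.123% and 1.06% in solvent controls. These overlapped (log2 difference 0.03; exact two-sided permutation test, p = 1.0). Within 1 kb of gene ends lay 1.31%, 1.37% and 1.41% in naked DNA and 1.31%, 1.35% and 1.41% in cells (p = 0.7 in the same exact test, adjusted 0.788). Of 4943 single gene starts tested 0 (0%) passed, and of 1941 gene ends 0 (0%) passed (limma voom; 292 and 123 at an unadjusted p under 0.05; 0 with limma trend in both). At gene starts the fit recovered 7.52% of simulated 2-fold changes, and at gene ends 35.4%. These are shares of only the 133 changed starts and 127 changed ends that still entered the test. Most changes of that size at a single start were thus not detectable at this depth.

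Summed over genes, the 300 bases before the start stood out. In naked replicates 2 and 3 the density increased most over this stretch. Naked libraries went from 990, 1172 and 1121 sites per 1000000 autosomal G sites in the 100 bases that begin 300 before the start to 1031, 1272 and 1263 in the last 100 bases. Cell libraries went from 957, 983 and 1131 to 979, 1020 and 1137 over the same bases, a change in cell replicate 2 close to that in naked replicate 1. In the 100 bases that begin 100 after the start, naked libraries reached 1154, 1344 and 1338 and cell libraries 1162, 1180 and 1406. Both groups were thus denser there than just before the start. The shape before the start was noticed first and then put into a value: the density in the 300 bases before the start over that from 500 to 1000 bases after it. The value was 0.11, 0.18 and 0.17 (log2) in naked DNA and -0.03, -0.00043 and 0.05 in cells. All naked libraries were above all cell libraries (0.15 ± 0.04 against 0.0047 ± 0.04, SD, n = 3 each; exact two-sided permutation test, p = 0.1, adjusted 0.45). Of the 9 values it was the other with no overlap. The difference was 0.15, and 0.13 to 0.17 when any 1 library was left out. In WT cells given TMZ once, replicate 1, the library that shares background sites with naked replicate 1, the value was -0.02, a difference of 0.13 within the set. MGMT cells given TMZ 3 times had -0.02, 0.03 and 0.0032, inside the range of WT cells. Sites at bases other than G did not separate the groups: the same value for them was -0.10, -0.03 and 0.04 in naked DNA and -0.08, -0.04 and 0.04 in cells. Solvent controls had -0.12, -0.13 and -0.09 at G, from 442 to 905 sites before the start per library. At other bases they had -0.57, -0.43 and -0.45, below every naked and cell library. Sites at other bases thus differed between TMZ and solvent libraries too, and the cause was not tested.

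**Figure D4:**
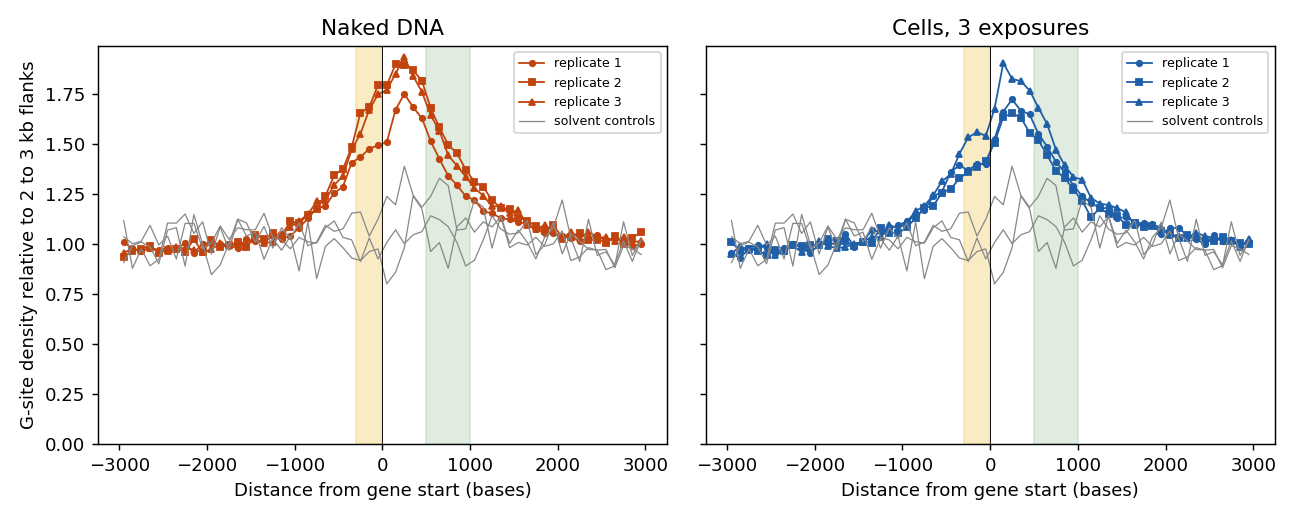
Density of G sites in bins of 100 bases around starts of protein-coding genes, relative to the flanks 2 to 3 kb away, in naked DNA (left) and cells given TMZ 3 times (right). Lines are libraries and grey lines solvent controls; the yellow band marks the 300 bases before the start and the green band 500 to 1000 bases after. Relative to the stretch after the start, the stretch before it is higher in each naked library (0.11 to 0.18, log2) than in each cell library (-0.03 to 0.05).

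The promoters most marked in naked DNA show how the sites lie on the sequence. Promoter sequences, 300 bases with 250 before the start, came from RefSeq (GRCh38.p14) and held a median of 4 G sites over the 3 naked libraries together and 3 over the cell libraries. The highest counts in naked DNA, 24 summed over its libraries, were in 2 promoters. One was that of NPR1, the receptor for atrial natriuretic peptide, at chr1:153678438-153678737 on the plus strand. It held 9, 7 and 8 G sites in the naked libraries, 0, 1 and 2 in cells, and 0, 1 and 0 in solvent controls. It was chosen for its naked DNA counts, so the lower counts in cells are in part given by the choice. Below, a capital G was marked on the printed strand and a capital C marks a G on the other strand, first in any naked library and then in any cell library.
NPR1 naked DNA: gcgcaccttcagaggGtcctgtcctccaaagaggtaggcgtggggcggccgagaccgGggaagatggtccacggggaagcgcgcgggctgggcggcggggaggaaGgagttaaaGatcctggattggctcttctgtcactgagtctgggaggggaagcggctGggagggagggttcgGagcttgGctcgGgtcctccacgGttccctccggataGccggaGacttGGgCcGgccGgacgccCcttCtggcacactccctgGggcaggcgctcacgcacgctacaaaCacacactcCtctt
NPR1 cells: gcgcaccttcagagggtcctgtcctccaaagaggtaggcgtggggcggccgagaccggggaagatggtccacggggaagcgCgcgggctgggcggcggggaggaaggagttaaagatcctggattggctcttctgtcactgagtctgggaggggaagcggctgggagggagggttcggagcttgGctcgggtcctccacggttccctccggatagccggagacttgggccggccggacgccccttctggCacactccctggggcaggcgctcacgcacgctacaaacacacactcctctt
Naked DNA was marked at 21 of the 199 G and C in this promoter and cells at 3. The promoter of ASH1L, a histone methyltransferase, at chr1:155562754-155563053 on the minus strand, was the other. It held 6, 9 and 9 G sites in naked DNA, 3, 6 and 5 in cells, and 1, 0 and 0 in solvent controls.
ASH1L naked DNA: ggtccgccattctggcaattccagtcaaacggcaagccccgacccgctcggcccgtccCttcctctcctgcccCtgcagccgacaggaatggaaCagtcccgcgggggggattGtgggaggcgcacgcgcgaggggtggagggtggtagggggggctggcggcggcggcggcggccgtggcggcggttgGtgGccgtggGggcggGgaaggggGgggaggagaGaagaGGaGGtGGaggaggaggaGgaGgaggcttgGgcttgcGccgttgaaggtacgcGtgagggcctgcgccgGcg
ASH1L cells: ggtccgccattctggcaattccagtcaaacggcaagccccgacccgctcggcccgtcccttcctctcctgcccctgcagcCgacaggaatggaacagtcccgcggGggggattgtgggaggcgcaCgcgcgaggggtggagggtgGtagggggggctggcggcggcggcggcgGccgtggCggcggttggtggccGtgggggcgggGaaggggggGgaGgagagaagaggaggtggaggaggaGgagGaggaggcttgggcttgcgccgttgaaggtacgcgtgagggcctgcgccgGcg
Its marks in naked DNA, 22 of 218 G and C, lay mostly on the printed strand, which is rich in purines before the start (19 G against 3 C). Those in cells, 13 in all, lay on that strand in 10 cases. Both promoters lie on chromosome 1, which was denser in naked replicate 3 and in its line.

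The neighbours of the marked guanine were compared next. Before a marked G, among sites whose neighbour is known from the solvent controls, the base was a purine in 76.2%, 79.0% and 79.8% of cases in naked DNA and 77.2%, 79.9% and 80.0% in cells (exact two-sided permutation test, p = 0.5, adjusted 0.771), against 56.8%, 52.3% and 52.0% in solvent controls. With the solvent control subtracted from the cell libraries, which has no counterpart for naked DNA here, the difference was -8.12 points instead of -0.71, with p = 0.1 in the exact test, unadjusted. The settings thus overlapped at this base as deposited and not after subtraction. After it, the base was C in 23.2%, 23.3% and 24.0% in naked DNA and in 26.2%, 25.9% and 26.0% in cells, with no overlap (-2.49 points; exact two-sided permutation test, p = 0.1, adjusted 0.32 over 16 values). In the library within the set of naked replicate 1, WT cells given TMZ once, it was 26.1%. At the next position on, G was found in 20.8%, 20.8% and 21.1% in naked DNA and in 18.9%, 18.5% and 19.4% in cells. There WT cells given TMZ once, replicate 1, had 20.9%, inside the range of naked DNA, so this separation was not seen within the set. In all, 5 of 16 combinations of base and position did not overlap. These shares rest on 42979 to 130382 sites per library and position.

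In promoters, the rate of marking per available G showed the same base. Relative to all G, a G between A and C (AGC) was marked 1.11, 1.13 and 1.11 times as often in naked DNA and 1.34, 1.28 and 1.28 times in cells. A G between G and C (GGC) had 1.33, 1.43 and 1.43 in naked DNA and 1.54, 1.52 and 1.53 in cells. A G between C and T (CGT) had 0.57, 0.50 and 0.51 in naked DNA and 0.40, 0.36 and 0.37 in cells, and a G between T and T (TGT) had 0.45, 0.39 and 0.39 against 0.37, 0.32 and 0.29. In these 4 of 16 contexts (25%) the groups did not overlap, 2 in each direction (exact two-sided permutation test, p = 0.1 each, the smallest possible, adjusted 0.40 over 16). The ratio of naked DNA to cells was lowest in AGC (0.859), GGC (0.910) and TGC (0.937) and highest in CGT (1.38), TGT (1.27) and TGA (1.17). The solvent controls had 1.15 ± 0.10 in CGT and 0.88 ± 0.27 in AGC (SD, n = 3). The mean of cells was further from these values than that of naked DNA in both. The 3 libraries of WT cells given TMZ once had 1.38, 1.38 and 1.31 in AGC and 0.44, 0.41 and 0.33 in CGT, on the side of the other cells, but 0.42, 0.55 and 0.40 in TGT, as high as naked DNA. In GGC they had 1.52, 1.44 and 1.46, the last 2 below every WT library given TMZ 3 times. MGMT cells given TMZ 3 times had 1.46, 1.14 and 1.30 in AGC, the second of these close to naked DNA, and 0.42, 0.38 and 0.36 in CGT. They had 1.52, 1.43 and 1.55 in GGC and 0.42, 0.34 and 0.34 in TGT, with the second in GGC and the first in TGT inside the range of naked DNA. In both settings GGG had the highest mean rate (1.71 in naked DNA, 1.61 in cells).

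**Figure D5:**
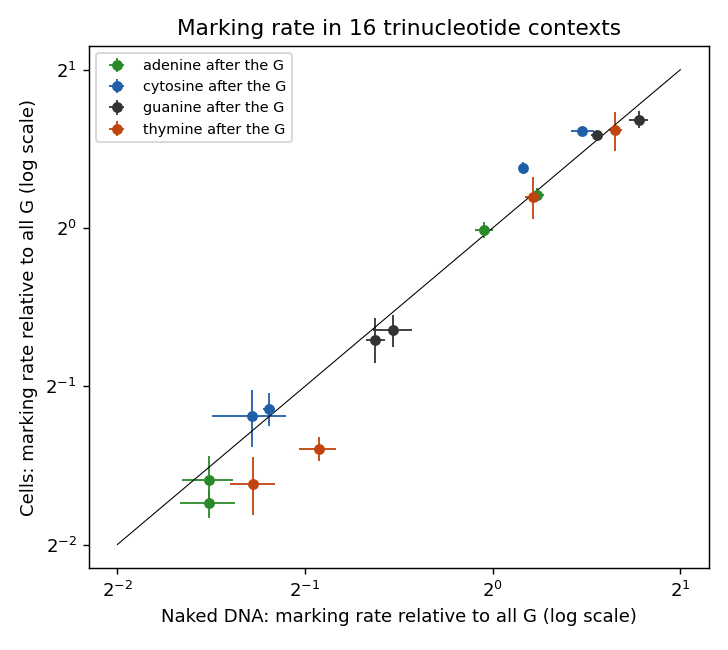
Marking rate of G in 16 trinucleotide contexts of promoters relative to all G, naked DNA (horizontal) against cells given TMZ 3 times (vertical), both axes logarithmic. Points are means of 3 libraries with bars of 1 SD, coloured by the base after the G, and the line marks equality. Contexts with cytosine after the G lie on or above the line and those with thymine after it on or below, the farthest at 0.53 in naked DNA against 0.38 in cells.

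Wider contexts, with 2 bases on either side of the G, were fitted over 249 pentanucleotides, a test added after the trinucleotide values were seen. Of these 7 (2.81%) passed, 4 higher in cells and 3 higher in naked DNA (limma voom, Benjamini-Hochberg). AGGCT was marked at 384, 248 and 285 of its 27289 positions in naked DNA and at 233, 319 and 344 in cells, where there were fewer G sites in all (log2 difference of shares -0.56, SE 0.09; limma, adjusted p = 0.0017). GAGCT (-0.48), AAGCT (-0.48) and AAGCC (-0.40) were the others higher in cells, and all 4 have a purine before the G and a C after it. Higher in naked DNA were CAGTG (0.49), CTGTG (0.73) and CTGTC (0.75), all 3 with a T after the G. When 1 library was left out, 1 passed without naked replicate 1, cell replicate 1 or cell replicate 3, 3 of 246 (1.22%) without naked replicate 3, 10 without naked replicate 2 and 11 without cell replicate 2. G positions were also split at the median GC content of the promoter bases around them (61.2%), so a promoter can supply both parts. AGGCT had -0.48 at positions of low and -0.60 at those of high GC content. Over all pentanucleotides with CGT in the middle 15 of 15 had the higher share in naked DNA (median 0.41), and with TGT 16 of 16 (median 0.28), but with GGT it was 9 of 16 (median 0.02) and with AGT 6 of 16 (median -0.08). With AGC it was 2 of 16 (median -0.23), with GGC 2 of 16 (median -0.22), with CGC 5 of 16 (median -0.05) and with TGC 6 of 16 (median -0.09). Pentanucleotides divide the trinucleotide counts of the same libraries into parts, so these directions are largely given by the trinucleotide values and are not separate evidence.

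Strand asymmetry in genes overlapped between the settings. The template strand, which RNA polymerase reads, carried fewer G sites than the coding strand, with log2 ratios of -0.20, -0.15 and -0.15 in naked DNA and -0.20, -0.16 and -0.18 in cells (exact two-sided permutation test, p = 0.6, adjusted 0.771). Solvent controls had -0.18, -0.06 and -0.05. None of these ratios was divided by the G available on each strand, so base composition and marking were not separated. The part of transcription in them was not tested. In the pair within a set the ratio was -0.20 in naked replicate 1 and -0.28 in WT cells given TMZ once.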

How the data were processed

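Each library is a list of distinct positions with strand, base and a score of 0 to 42, whose meaning is not given in the sources used here. Per the submitters' processing notes, FastQC 0.11.9, Trimmomatic 0.38 and 0.39, cutadapt, Bowtie2 2.3.5.1, GATK 4.2.0.0, SAMtools 1.12 and bedtools 2.29.2 and the build GRCh38 were used, and the lists as deposited by the authors hold that score per site. The deposited lists start positions at 0, and 1 was added; all of 428901 bases then matched RefSeq promoter sequences. Sites of score 30 or more were counted in 100 kb windows, 19126 protein-coding gene bodies, and 1 kb around starts and ends of the 15101 genes with a strand. Features with 30 sites (windows) or 10 sites (genes, ends) in 3 libraries entered limma 3.58.1 (voom, trimmed-mean sizes, R 4.3.3), Benjamini-Hochberg adjusted; the fit was tested on simulated data. Single values per library used exact permutation tests (Python 3.11.15, numpy 2.4.6, scipy 1.17.1). Nothing in the labels says that replicates are separate cultures, so p-values measure the spread between these libraries. Alternatives were limma trend with median-of-ratios sizes, no minimum score, the solvent control subtracted, counts relative to other bases, the dosage correction, the replicate block and each library left out. Bases beside a site came from positions marked in the 12 solvent-control libraries.

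Genes were to be named by largest change past the threshold, and in each list by smallest p (up to 4 members), with MGMT; since no gene passed with all libraries, those called without naked replicate 3 or with the dosage correction were named after their values were seen. Some genes that the rule names are not reported here. The members and lists were chosen with earlier results of these data known.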

Additional observations from a re-analysis of the deposited data

Results flagged for a closer look

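Sites at A, which the comparison of G sites leaves out, were more frequent in naked DNA than in solvent controls relative to sites at C and T. Over the autosomes there were 2.305 ± 0.40 sites at A for the mean of sites at C and T in naked DNA, 1.30 ± 0.07 in cells given TMZ 3 times and 1.04 ± 0.04 in their solvent controls (SD, n = 3 each). Naked libraries ranged from 2.05 to 2.76 and cell libraries from 1.22 to 1.34, with no overlap. In promoters these sites were densest at an A directly before a G, but relative to C and T the other A were also denser in naked DNA than in cells.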

How the results depend on the processing

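Limits: counts of distinct sites hold no read depth, and a position marked in many molecules counts once. No solvent-treated naked DNA was used, sets of shared background sites cannot be told apart from the groups, and 3 against 3 libraries cannot give an exact p under 0.1. DNA of naked replicate 3 came from MGMT-transfected cells. Near gene starts, sites at other bases also differed between TMZ and solvent libraries, so values relative to them are not relative to an untreated background.

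The number of windows called was 0 with all libraries and 0 to 10 when 1 library was left out, 10 only without naked replicate 3. It was 23 with the dosage correction, 0 to 7 when a further library was then left out (2 without cell replicate 1, 5 without cell replicate 3, 7 without naked replicate 2), 1 relative to C and T sites and 1 with the solvent control subtracted. The number of genes called was 0, 0 to 27 when 1 library was left out (27 only without naked replicate 3), 2 with the dosage correction, 0 to 8 when a further library was left out (8 without naked replicate 2, of which 5 were higher in naked DNA and 3 in cells), 2 with the solvent control subtracted and 4 with all 9 groups in the fit. No other setting listed called a window or gene, and none called a gene start or end. Pentanucleotides called were 7, 5 with limma trend, 12 with the replicate block, 3 at promoter positions of low and 1 at those of high GC content.

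Deviations of same-numbered libraries correlated at 0.11, -0.0051 and 0.05. Of the 3 naked libraries 2 correlated best with their own number, and of the 3 cell libraries also 2. These values do not settle whether replicate numbers pair the libraries. With the replicate block 0 windows, 0 genes, 0 gene starts and 0 gene ends were called, and sign flips over replicate pairs cannot give p under 0.25.

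Some differences changed sign. For gene starts (log2 0.03) it was -0.068 with the solvent control subtracted, and -0.00035 to 0.091 when 1 library was left out. For gene ends (0.0085) it was -0.0012 with no minimum score, -0.057 with the solvent control subtracted, -0.021 relative to sites at other bases, and -0.016 to 0.037 when 1 library was left out. For a purine before G (-0.71 points) it was -1.62 to 0.37 when 1 library was left out, positive only without naked replicate 1, 1.44 in the pair within a set and -8.12 with the solvent control subtracted. For unevenness (0.01) it was -0.031 with the solvent control subtracted and -0.0027 to 0.022 when 1 library was left out. Named genes turned too, some of them by much. Relative to C and T sites MUTYH had -0.057, CDK6 0.0041, PKM -0.21, HOXB1 -0.74, HOXA13 0.38 and H1-8 0.50. Relative to all non-G sites PKM had -0.27, ENO1 -0.00021, OR9A4 -0.15, VIM 0.12, HOXA13 0.50 and H1-8 0.32. H4C15 had 0.041 with no minimum score, and H2BC12 0.33 with the solvent control subtracted. The causes were not tested.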
